A study of Caenorhabditis elegans with 2 samples.

Results

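The genes described here are 36 protein-coding genes of Caenorhabditis elegans that act in meiotic recombination and chromosome pairing, of 19973 nuclear protein-coding genes in the Ensembl models. They were taken from a list of named genes and were sorted by role into 8 genes of break formation, 7 of resection and strand exchange, 14 of crossover formation and joint molecule processing, and 7 of pairing with its kinases and its monitor. Binding of REC-8, a kleisin that cohesin uses in meiosis, was measured at them by chromatin immunoprecipitation followed by sequencing (ChIP-seq). Whole hermaphrodites of strain YL581 were collected as young adults at 50 hours after release from starvation as L1 larvae, in 2 biological replicates of 1 group. Per the labels the line is transgenic and stably expresses REC-8 with GFP and FLAG at its C terminus, the chromatin was sonicated, and the precipitation used an antibody to GFP. The antibody field names rec-8 instead. The control that the labels mention is not analysed here, nor is any line without the tag, and intestine, muscle and neurons are present in the same worms beside the germ line.

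Meiotic recombination begins with programmed double-strand breaks, which are resected to single strands, coated by a strand-exchange protein and repaired on the homologous chromosome. A few of the joint molecules become crossovers, which hold the homologues together until they separate. In this worm each chromosome carries a pairing centre near an end, read by zinc-finger proteins that bring the homologues together at the nuclear envelope. Cohesin complexes that contain REC-8 hold sister chromatids together and are part of the chromosome axis on which all of this takes place.

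The data are peak lists, which the authors called on each replicate and on both pooled. The lists without a reproducibility threshold held 10019 peaks (pooled), 17532 peaks (replicate 1) and 14069 peaks (replicate 2), and the thresholded list held 739 pooled peaks that passed the authors' rule on irreproducible discovery rate. Each peak has a signal value, which is the authors' own and is not scaled between lists. The lowest signal was 39.9 in the pooled list, 19.9 in the replicate 1 list and 20.0 in the replicate 2 list, so strength is given below as a rank and as a position in the list, where 0% is the strongest peak and 100% the weakest. A gene was counted as marked when the summit of a peak lay between 1000 bp upstream and 500 bp downstream of any of its transcript starts. The lists without the threshold hold background as well as peaks, and all their entries are called peaks here. A marked gene, above all one near the lowest signal, is thus not thereby shown to bind REC-8. The depth is unknown, since reads are not analysed here, and a gene with no listed summit is not thereby shown to lack REC-8.

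In the pooled list 12 of the 36 genes (33.3%) had a summit in the start window, against 4197 of all protein-coding genes (21.0%). The 12 were him-5, xnd-1 and dsb-1 of break formation, mre-11, rad-51 and rad-50 of resection and strand exchange, him-14, zhp-2, cosa-1, xpf-1 and zhp-1 of crossover formation, and pch-2 of the pairing group. In the replicate 1 list 18 members (50%) were marked, against 31.0% of all protein-coding genes. In the replicate 2 list 20 members (55.6%) were marked, against 26.6% of all protein-coding genes. Both replicate lists marked 14 members (38.9%), against 15.6% of all protein-coding genes. The members' share was above that of all genes in each of these lists, with no test made, since the files hold 1 group of samples.

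Fewer members had replicate peaks at the same place. Peaks of both replicates that lay in the window of the same member and overlapped by at least 50% of the shorter peak were found for 8 of 36 members (22.2%), against 11.8% of all protein-coding genes. The thresholded list marked 1 member, him-5 (2.78%), against 2.35% of all protein-coding genes. Unmarked in all 3 lists without the threshold were 12 members (33.3%), against 57.6% of all protein-coding genes. None of the members lies on X, which holds 13.7% of all protein-coding genes, and over autosomal genes alone the marked share was 22.2% in the pooled list, 32.4% in the replicate 1 list and 27.7% in the replicate 2 list.

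**Figure D1:**
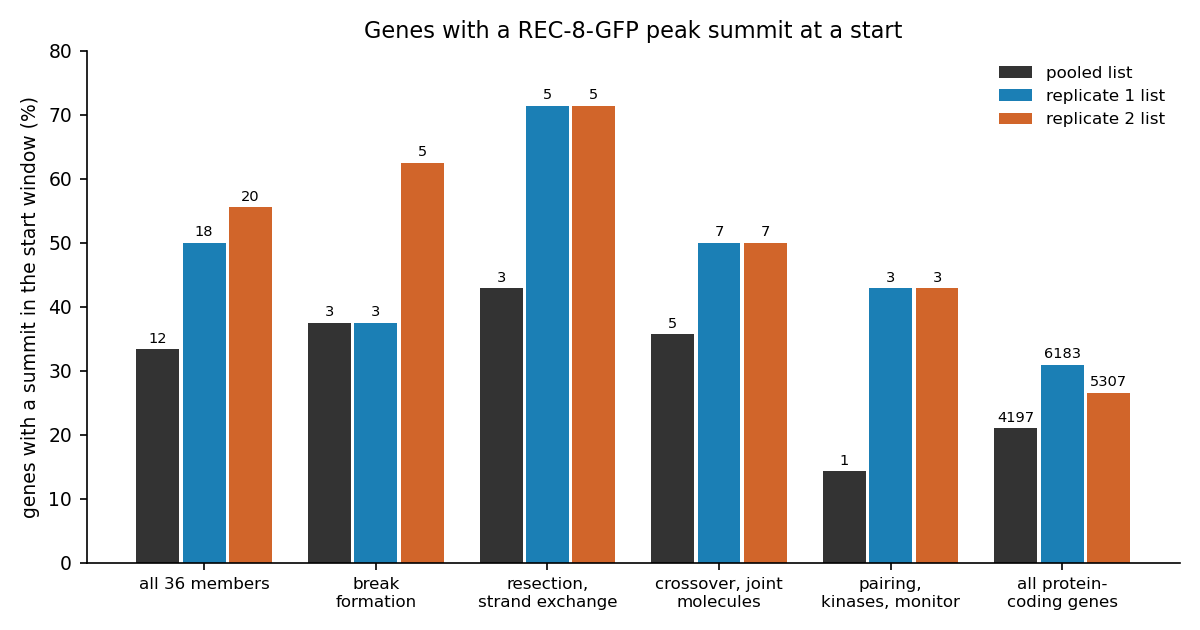
Percentage of genes with a peak summit in the start window (y axis) for all 36 members, each role and all protein-coding genes (x axis), with 1 bar per list and the number of genes above it. The bars of all members stand at 33.3%, 50% and 55.6% in the pooled, replicate 1 and replicate 2 lists, and those of all protein-coding genes at 21.0%, 31.0% and 26.6%.

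The sequences at 8 pooled summits of members with a high signal in their role are shown because they are the DNA that the counts rest on. The set leaves out zhp-2, whose pooled signal was above that of cosa-1. They are given 5′ to 3′ on the plus strand of ce11 (WBcel235), read from the RefSeq genome of that assembly, as up to 200 bases centred on the summit and shortened where an annotated UTR begins. Capitals mark the 21 bases centred on the summit.
him-5 (chrV:14092455-14092577): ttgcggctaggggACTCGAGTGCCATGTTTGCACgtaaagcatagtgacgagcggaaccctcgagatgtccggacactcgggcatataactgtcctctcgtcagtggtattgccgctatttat
mre-11 (chrV:10736869-10737059): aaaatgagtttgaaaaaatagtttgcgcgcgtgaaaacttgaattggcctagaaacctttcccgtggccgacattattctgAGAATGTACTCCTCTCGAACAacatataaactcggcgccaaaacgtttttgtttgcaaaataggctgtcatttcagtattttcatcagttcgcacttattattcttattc
pch-2 (chrII:8158042-8158205): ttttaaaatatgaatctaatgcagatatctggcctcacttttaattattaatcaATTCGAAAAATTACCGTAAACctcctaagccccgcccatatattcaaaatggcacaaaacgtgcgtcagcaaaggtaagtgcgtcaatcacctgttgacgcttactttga
xnd-1 (chrIII:5603717-5603916): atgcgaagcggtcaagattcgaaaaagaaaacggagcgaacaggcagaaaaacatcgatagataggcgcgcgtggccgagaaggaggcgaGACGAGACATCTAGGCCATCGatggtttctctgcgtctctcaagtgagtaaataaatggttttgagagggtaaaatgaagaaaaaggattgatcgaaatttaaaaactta
him-14 (chrII:7070026-7070182): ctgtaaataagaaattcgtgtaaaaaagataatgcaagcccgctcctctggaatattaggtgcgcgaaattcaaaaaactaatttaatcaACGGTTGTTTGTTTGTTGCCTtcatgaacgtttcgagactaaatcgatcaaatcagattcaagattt
rad-51 (chrIV:10284567-10284766): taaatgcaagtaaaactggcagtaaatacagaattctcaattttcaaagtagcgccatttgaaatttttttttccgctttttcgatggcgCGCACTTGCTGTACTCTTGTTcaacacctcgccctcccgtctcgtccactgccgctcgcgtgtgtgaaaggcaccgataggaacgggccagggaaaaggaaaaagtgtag
dsb-1 (chrIV:12408935-12409109): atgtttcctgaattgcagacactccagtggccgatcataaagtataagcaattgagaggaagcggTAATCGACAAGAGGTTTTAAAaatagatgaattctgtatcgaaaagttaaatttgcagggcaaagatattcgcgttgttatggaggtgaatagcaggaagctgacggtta
cosa-1 (chrIII:2725280-2725479): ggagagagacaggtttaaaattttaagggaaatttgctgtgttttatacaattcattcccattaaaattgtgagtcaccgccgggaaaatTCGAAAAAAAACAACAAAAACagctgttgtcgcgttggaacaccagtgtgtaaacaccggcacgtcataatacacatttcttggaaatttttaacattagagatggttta
The summit of dsb-1 lies in its coding sequence, that of cosa-1 in an intron of its neighbour cox-6B, and those of the other 6 genes outside protein-coding genes.

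Among the genes of break formation, 3 of 8 (37.5%) were marked in the pooled list, against 21.0% of all protein-coding genes. The replicate 1 list marked 3 (37.5%), against 31.0%, and the replicate 2 list 5 (62.5%), against 26.6%. The strongest was him-5 (V 14090426 to 14092454, plus strand), whose product is required for breaks on the X chromosome. Its summit had a signal of 99.9 in the pooled list (rank 625, 6.24%) and 54.4 in the replicate 1 list (rank 628, 3.58%), at 391 and 390 bp past a late transcript start. This summit, at V 14092478, lies beyond the 3′ end of him-5, and the nearest start is that of the neighbouring gene D1086.3, 314 bp away. A snoRNA gene, smy-3, lies 94 bp from it. In the replicate 2 list the overlapping peak had a signal of 52.4 (rank 589, 4.19%), but its summit at V 14092594 fell just outside the him-5 window. The strongest replicate 2 summit inside the window had a signal of 31.4 (rank 2935, 20.9%) and lay 980 bp upstream of a start. The him-5 locus thus had a peak near the top of all 3 lists, at the end of the gene and not at its first start.

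The gene xnd-1 (III 5604460 to 5607556, plus strand), which encodes a chromatin protein that shapes where breaks form, had a pooled signal of 68.1 (rank 1590, 15.9%) at 643 bp upstream of its start. Its signal was 21.5 in the replicate 1 list (rank 14143, 80.7%) and 47.7 in the replicate 2 list (rank 759, 5.39%), with summits 641 and 698 bp upstream. The 3 summits lay close together, but the peak was near the top of the replicate 2 list and in the weakest 25% of the replicate 1 list. The start of madf-11 was nearer to the pooled summit, at 328 bp.

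For dsb-1 (IV 12408925 to 12410470, plus strand), one of the proteins that promote breaks, the order of the replicates was the opposite. The pooled summit had a signal of 55.0 (rank 3171, 31.6%) in a coding exon, 69 bp upstream of an inner start. The replicate 1 signal was 39.5 (rank 1546, 8.82%) at 48 bp downstream of a start, and the replicate 2 signal was 21.1 (rank 12011, 85.4%) at 237 bp upstream. No replicate 2 peak overlapped the pooled peak by at least 50% of the shorter peak.

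Of the other break genes, spo-11, which encodes the enzyme that makes the breaks, was marked only in the replicate 2 list, with a signal of 33.0 (rank 2460, 17.5%) at 264 bp upstream. The him-5 paralogue rec-1 also had a summit in that list alone, of signal 21.2 (rank 11940, 84.9%), in an intron of pif-1 and 132 bp from the start of that gene. No list marked dsb-2, dsb-3 or him-17, the first a paralogue of dsb-1, the second a further break-promoting gene, and the last a chromatin protein needed for breaks.

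Among the genes of resection and strand exchange, 3 of 7 (42.9%) were marked in the pooled list, against 21.0% of all protein-coding genes. Each replicate list marked 5 (71.4%), against 31.0% (replicate 1) and 26.6% (replicate 2). The gene mre-11 (V 10733925 to 10736868, minus strand), the nuclease of the complex that starts resection, had a pooled signal of 73.0 (rank 1326, 13.2%) at 92 bp upstream of its start. Its signal was 32.7 in the replicate 1 list (rank 3181, 18.1%) and 38.9 in the replicate 2 list (rank 1358, 9.65%), at 92 and 103 bp upstream. Among the members, mre-11 and him-5 were those marked in the strongest 25% of all 3 lists. Unlike that of him-5, the mre-11 summit was nearest to the gene's own start and lay at nearly the same place in both replicates.

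The gene rad-51 (IV 10281634 to 10284244, minus strand), the strand-exchange recombinase, had a pooled signal of 59.5 (rank 2419, 24.1%) at 423 bp upstream. Its signal was 38.5 in the replicate 1 list (rank 1701, 9.70%) and 20.4 in the replicate 2 list (rank 13300, 94.5%), at 397 and 423 bp upstream. The summits nearly coincided, but the replicate 2 peak was among the weakest of its list. The gene rad-50 (V 12245646 to 12251246, plus strand), the partner of mre-11, had a pooled signal of 41.8 (rank 8528, 85.1%) in a coding exon, 24 bp from an inner start. Its replicate 1 signal was 23.5 (rank 10767, 61.4%), and the replicate 2 list held no summit in its window.

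Both replicate lists, but not the pooled list, marked com-1, which promotes resection, and brc-1, the BRCA1 orthologue. For com-1 the signals were 26.6 at 434 bp upstream (replicate 1) and 28.1 at 391 bp downstream (replicate 2). For brc-1 they were 20.1 at 104 bp upstream and 20.8 at 690 bp upstream, close to the lowest signal of either list. In both genes the summits of the replicates lay at different places. The BRCA2 orthologue brc-2 was marked in the replicate 2 list alone, with a signal of 22.5, and brd-1, which encodes the partner of the brc-1 product, in none.

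Among the genes of crossover formation and joint molecule processing, 5 of 14 (35.7%) were marked in the pooled list, against 21.0% of all protein-coding genes. Each replicate list marked 7 (50%), against 31.0% (replicate 1) and 26.6% (replicate 2). The gene him-14 (II 7065020 to 7069966, minus strand), the MSH4 orthologue that stabilises joint molecules, had the highest pooled signal of the group, 63.3 (rank 1989, 19.9%) at 160 bp upstream. Its signal was 40.2 in the replicate 1 list (rank 1453, 8.29%) and 26.9 in the replicate 2 list (rank 5302, 37.7%), at 173 and 55 bp upstream. The peaks of both replicates overlapped the pooled peak. The partner of him-14, msh-5, was marked in the replicate 2 list alone, with a signal of 23.2 at 851 bp upstream, 39 bp from the start of crld-1.

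The gene zhp-2 (I 8485810 to 8487062, minus strand), one of 4 RING-finger genes of the Zip3 family, had a pooled signal of 50.6 (rank 4316, 43.1%) at 601 bp upstream. Its signal was 23.5 in the replicate 1 list (rank 10773, 61.4%) and 32.7 in the replicate 2 list (rank 2525, 17.9%), at 576 and 541 bp upstream. The pooled summit lay in a coding exon of the neighbour lotr-1, 45 bp from the start of that gene, so the window of zhp-2 covers the start of lotr-1.

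The gene cosa-1 (III 2726116 to 2731670, plus strand), a cyclin-like protein that marks crossover sites, had 2 pooled summits, of signal 45.3 (rank 6448, 64.4%) at 736 bp upstream and 42.3 (rank 8171) at 533 bp upstream. The replicate 1 list held 1 summit, of signal 20.1 (rank 17035, 97.2%) at 739 bp upstream, and the replicate 2 list held 1, of signal 27.7 (rank 4723, 33.6%) at 532 bp upstream. Each replicate thus had a summit at 1 of the 2 pooled positions, and the nearest start was that of Y71H2AM.11.

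The gene xpf-1 (II 11696171 to 11705371, plus strand), a structure-specific nuclease, had a pooled signal of 42.5 (rank 8035, 80.2%) at 249 bp upstream. Its signal was 28.9 in the replicate 1 list (rank 5127, 29.2%) at 15 bp downstream and 24.6 in the replicate 2 list (rank 7322, 52.0%) at 513 bp upstream. That replicate 2 summit lay 1 bp from the start of tars-1. The pooled summit lay in an intron of kel-1. No replicate 1 peak overlapped the pooled peak by at least 50% of the shorter peak. A second replicate 2 peak did, with a signal of 23.4 (rank 8727) and its summit 213 bp upstream. A further member of the RING-finger family, zhp-1, had a pooled signal of 41.6 (rank 8711, 86.9%) at 997 bp upstream, just inside the edge of the window, and its replicate 2 summit lay exactly at 1000 bp. In the pooled list the median position was 64.4% over 5 genes of the crossover group, 15.9% over 3 of break formation and 24.1% over 3 of resection. In the replicate 1 list it was 61.4% over 7 crossover genes, 8.82% over 3 break genes and 39.7% over 5 resection genes. In the replicate 2 list it was 52.0% over 7 crossover genes, 20.9% over 5 break genes and 70.7% over 5 resection genes. Over all marked protein-coding genes it was 40.4% (pooled), 40.5% (replicate 1) and 41.7% (replicate 2). Of these 3 roles the break group thus stood highest in all 3 lists, while the order of the crossover and resection groups turned round in the replicate 2 list. This order rests on few genes and partly on peaks nearer to a neighbour. The start nearest to the strongest pooled summit was the member's own for 1 of 3 break genes, 3 of 3 resection genes and 3 of 5 crossover genes. The pairing group is not part of this order. Its 1 gene marked in the pooled list stood at 14.3%, ahead of the break median. Over 3 pairing genes the median was 37.5% in the replicate 1 list and 52.8% in the replicate 2 list. No test was made of these differences.

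The replicate 1 list alone marked rmh-1, which acts with the BLM helicase (signal 23.4), and rtel-1, a helicase that takes joint molecules apart (signal 28.2). The rmh-1 summit lay in a coding exon of cey-3, 98 bp from the start of that gene. The replicate 2 list alone marked zhp-4 (signal 21.2). No list marked zhp-3, him-6 (the BLM helicase), him-18 (the scaffold of the resolving nucleases), slx-1 or mus-81. Of the nucleases that cut joint molecules, xpf-1 was therefore the 1 member with a summit at its start in any list.

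**Figure D2:**
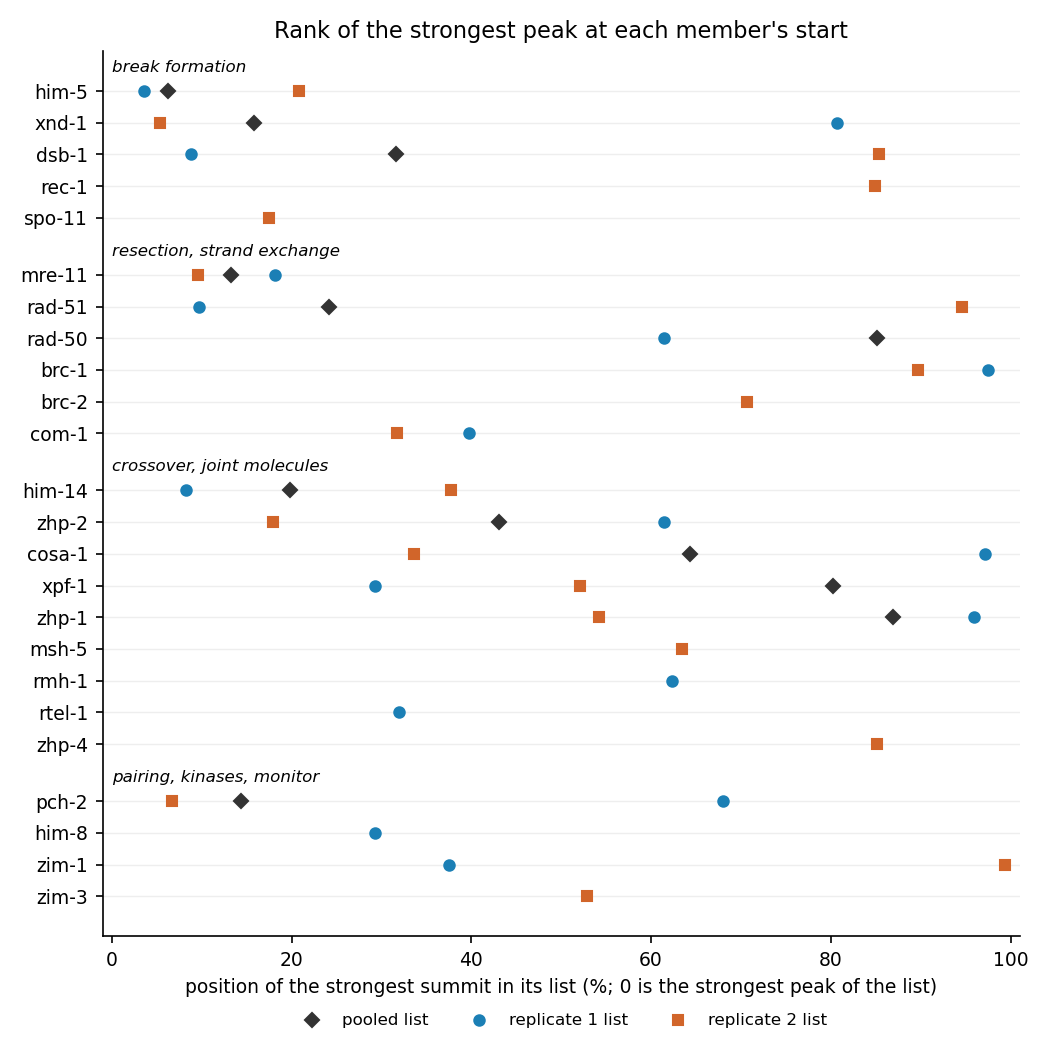
Position in its list of the strongest peak in each marked member's window (x axis, %, 0 is the strongest peak of the list) by gene and role (y axis), with 1 symbol per list. Symbols of him-5 and mre-11 stay in the strongest 25% of each list, and those of xnd-1, dsb-1, rad-51 and pch-2 lie far apart between the replicates.

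Among the pairing genes, 1 of 7 (14.3%) was marked in the pooled list, against 21.0% of all protein-coding genes. Each replicate list marked 3 (42.9%), against 31.0% (replicate 1) and 26.6% (replicate 2). The 1 gene marked in the pooled list was pch-2 (II 8158349 to 8159925, plus strand), the ATPase that monitors and times pairing and synapsis. Its pooled signal was 70.7 (rank 1436, 14.3%) at 243 bp upstream of its start. Its signal was 22.7 in the replicate 1 list (rank 11918, 68.0%) and 43.8 in the replicate 2 list (rank 951, 6.76%), at 239 and 203 bp upstream. As for xnd-1, the summits coincided while the strength differed. No list marked the kinase genes chk-2 and plk-2 at their starts.

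The 4 genes of the zinc-finger proteins that bind the pairing centres, zim-1, zim-2, zim-3 and him-8, lie side by side on IV from 10547086 to 10563974, over 16.9 kb. No pooled summit lay at any of them. In the replicate 1 list zim-1 had a signal of 27.0 (rank 6577, 37.5%) at 482 bp upstream, and him-8 one of 28.9 (rank 5132, 29.3%) at 105 bp downstream. In the replicate 2 list zim-1 had a signal of 20.1 (rank 13981, 99.4%) at 378 bp upstream of an inner start, and zim-3 one of 24.5 (rank 7432, 52.8%) at 191 bp upstream. The zim-1 summits of the replicates were at different starts, and zim-2 was marked in no list.

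The cluster lay in a long stretch with no pooled summit, which was noticed after the values were seen. The stretch ran between the pooled summits at IV 10528562 and 10663224, over 134.7 kb, and held 28 protein-coding genes. Among 10007 distances between neighbouring pooled summits, whose median was 5.36 kb, 3 were at least this long, the stretch itself included. From the starts of the 4 genes the nearest pooled summit was 18524 bp (zim-1) to 33343 bp (him-8) away. It was at least as far as for zim-1 for 1300 of all protein-coding genes (6.51%). Since the 4 genes are neighbours in 1 stretch, their distances are not separate observations.

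The replicate lists did not share that stretch. The replicate 1 list held 15 summits in it, or 11.1 per 100 kb, against 15.7 over IV and 17.5 over the nuclear genome. The replicate 2 list held 12, or 8.91 per 100 kb, against 13.0 over IV and 14.01 over the nuclear genome. The longest stretch without a summit that touched the cluster was 15.4 kb in the replicate 1 list and 10.4 kb in the replicate 2 list. When each replicate list was reduced to its strongest 10019 peaks, it was 29.6 kb and 14.8 kb. The long stretch was therefore a feature of the pooled list.

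**Figure D3:**
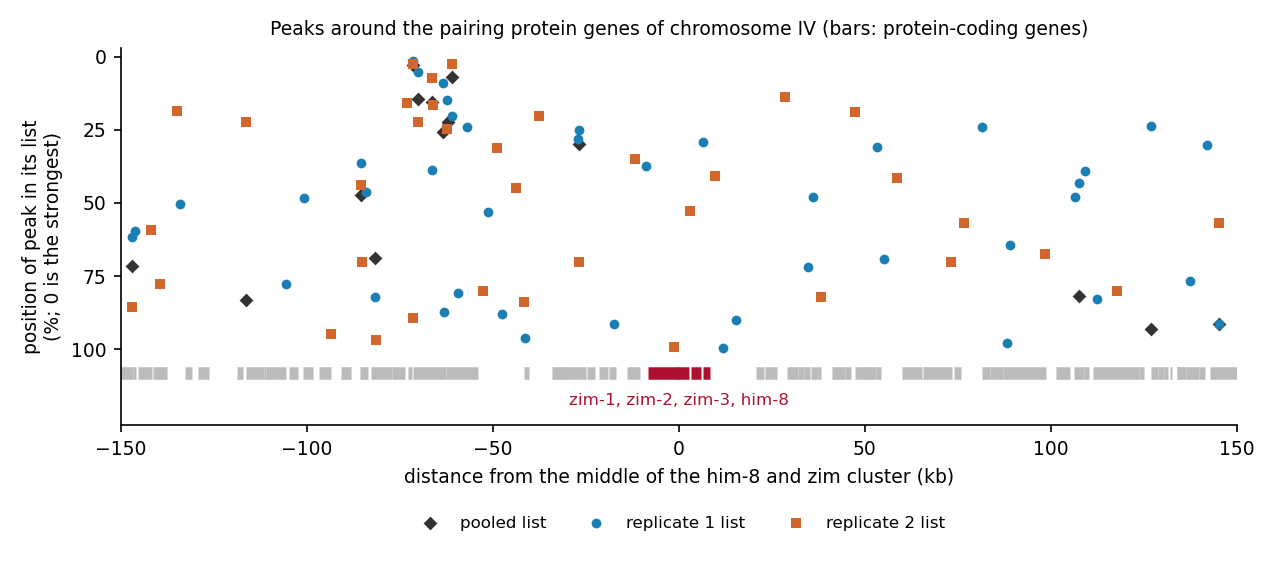
Peaks within 150 kb of the middle of the him-8 and zim cluster, by distance (x axis, kb) and position in their list (y axis, %, 0 is the strongest), with 1 symbol per list and bars for protein-coding genes, the cluster in red. Pooled peaks are missing over 134.7 kb around the cluster, while peaks of each replicate are scattered through it.

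Within the gene bodies the order was different from that at the starts. When the window was extended to the end of the gene, 19 of 36 members (52.8%) held a pooled summit, against 33.2% of all protein-coding genes. The added 7 were brd-1, zhp-3, him-6, dsb-3, plk-2, mus-81 and msh-5, and the peaks of the first 2 were stronger than that at any member's start. The summit in brd-1 had a signal of 181 in the pooled list (rank 121, 1.21%), 102 in the replicate 1 list (rank 92) and 80.1 in the replicate 2 list (rank 202). The summit in zhp-3 had a signal of 128 in the pooled list (rank 348, 3.47%), 55.5 in the replicate 1 list (rank 597) and 78.7 in the replicate 2 list (rank 217). Both peaks were also in the thresholded list, and both lay in introns, 1750 and 1148 bp past the start of the gene.

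The pooled summits of both lay inside a tRNA gene that sits in the intron. So did those of both replicates in brd-1 and that of replicate 1 in zhp-3, while the replicate 2 summit in zhp-3, at I 8530240, lay beside the tRNA gene. In brd-1 it was a tRNA-Lys gene (III 6887728 to 6887800, minus strand) and in zhp-3 a tRNA-Glu gene (I 8530128 to 8530199, minus strand), by the RefSeq names. The brd-1 gene holds 2 more tRNA genes, both for tRNA-Gly, with pooled summits within 250 bp of signal 83.3 (rank 952) and 50.4 (rank 4359). The stretch at the brd-1 summit is shown because it holds the strongest of the member peaks given here. Its capitals mark the tRNA-Lys gene on the opposite strand.
brd-1 intron (chrIII:6887654-6887853): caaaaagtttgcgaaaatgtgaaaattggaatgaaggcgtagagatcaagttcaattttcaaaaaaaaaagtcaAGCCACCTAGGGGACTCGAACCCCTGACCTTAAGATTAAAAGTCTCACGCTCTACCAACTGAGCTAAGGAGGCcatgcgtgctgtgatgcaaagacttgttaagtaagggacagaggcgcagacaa
Read on its own strand, the tRNA-Lys gene holds GGTTCGA, the core of the B box of tRNA genes, at base 52 of 73.

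This was what most protein-coding genes with a tRNA gene inside them showed, a comparison added after the brd-1 and zhp-3 values were seen. Such genes were 2 of 36 members and 228 of all protein-coding genes (1.14%). In the pooled list both members had a summit within 250 bp of a tRNA gene inside them, against 87.7% of the 228. The same held for both members in the replicate 1 list, against 86.4%, and in the replicate 2 list, against 87.7%. In the thresholded list it held for both, against 58.8%. Summits inside a tRNA gene made up 2.75% of all pooled peaks and 25.3% of the thresholded peaks. Beside these background shares, the peaks in brd-1 and zhp-3 are not particular to the members.

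In the other 5 added genes the body summits given here were weaker and had no tRNA gene within 250 bp. Up to the gene end him-6 and plk-2 each held 2 pooled summits, of which 1 is given. Further pooled summits inside him-5, rad-51 and xpf-1, which were already marked at a start, are not described here. That of him-6 had a pooled signal of 67.6 (rank 1637) in a coding exon, with 41.5 in the replicate 1 list and no overlapping replicate 2 peak. That of dsb-3 had 61.7 (rank 2152) in a coding exon, with 25.6 in the replicate 1 list and 38.7 in the replicate 2 list. The pooled signals in plk-2, mus-81 and msh-5 were 55.0, 51.7 and 43.5, and each had an overlapping peak in both replicate lists.

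The marked members' pooled peaks were spread over the list. Their median position was 27.9% (6.24% to 86.9%, 12 genes), against 40.4% over the 4197 marked genes, and 6 of 12 (50%) were in the strongest 25% of the list, against 33.9%. In the replicate 1 list the median was 38.6%, against 40.5%, and 5 of 18 (27.8%) were in the strongest 25%, against 34.5%. In the replicate 2 list it was 52.4%, against 41.7%, and 6 of 20 (30%) were in the strongest 25%, against 33.0%. The members' larger share in the strongest 25% of the pooled list was thus found in neither replicate list, where their share was the smaller one.

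The counts also changed with how far down the list peaks were taken. Among the strongest 739 pooled peaks 1 member was marked (2.78%), against 2.35% of all protein-coding genes. Among the strongest 2000 it was 5 (13.9%), against 5.998%, and among the strongest 5000 it was 8 (22.2%), against 12.3%. With the replicate lists taken to the length of the pooled list, 10 members (27.8%) were marked in that of replicate 1, against 20.2%, and 14 (38.9%) in that of replicate 2, against 20.4%. Both reduced lists marked 5 members, against 10.4% of all protein-coding genes.

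**Figure D4:**
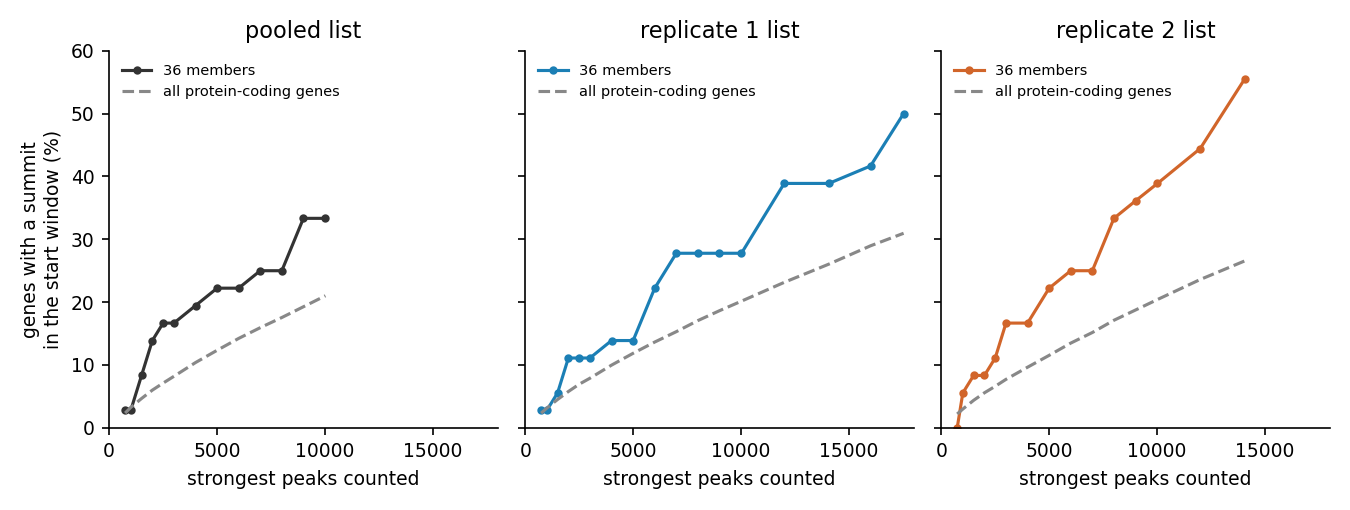
Percentage of genes with a summit in the start window (y axis) as the number of strongest peaks counted grows (x axis), for the 36 members (solid) and all protein-coding genes (dashed), with 1 panel per list. The members reach 13.9% at the strongest 2000 pooled peaks, where all protein-coding genes reach 5.998%, and 33.3% against 21.0% at the full list.

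The order of the members by the strongest peak in the window was not shared by the replicates. Over the 14 members marked in both lists, Spearman's rho between the positions was -0.09, against 0.51 over the 3107 genes marked in both. The strongest peak of a window need not be the same peak in both lists. Replicate peaks in the window that overlapped by at least 50% of the shorter peak were found for 8 of the 14 members, against 2357 of the 3107 genes. The rho thus compares windows and not shared peaks. In the stronger 50% of both lists were 4 of the 14 members, against 1641 of the 3107 genes. These are descriptions of libraries of unknown depth over few genes, and no test was made of the difference.

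The 13 pooled member peaks lay mostly upstream of the nearest start of the member, which can be an inner start. A negative distance to that start, that is, an upstream summit, was found for 12 of 13 (92.3%), against 69.1% of pooled summits counted per gene over all protein-coding genes. The 12 include the summits of dsb-1 and rad-50, which lay inside the gene, in a coding exon of its own, and upstream of an inner start only. Within 250 bp of the start were 6 of 13 (46.2%), against 42.5%. Of the 13 peaks, 12 overlapped a replicate 1 peak by at least 50% of the shorter peak, 11 a replicate 2 peak and 10 both. The 2 pooled peaks of cosa-1 overlapped the same peak of each replicate and are both counted. The share of all pooled peaks with such an overlap is not given here, so these counts do not set the members apart.

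**Figure D5:**
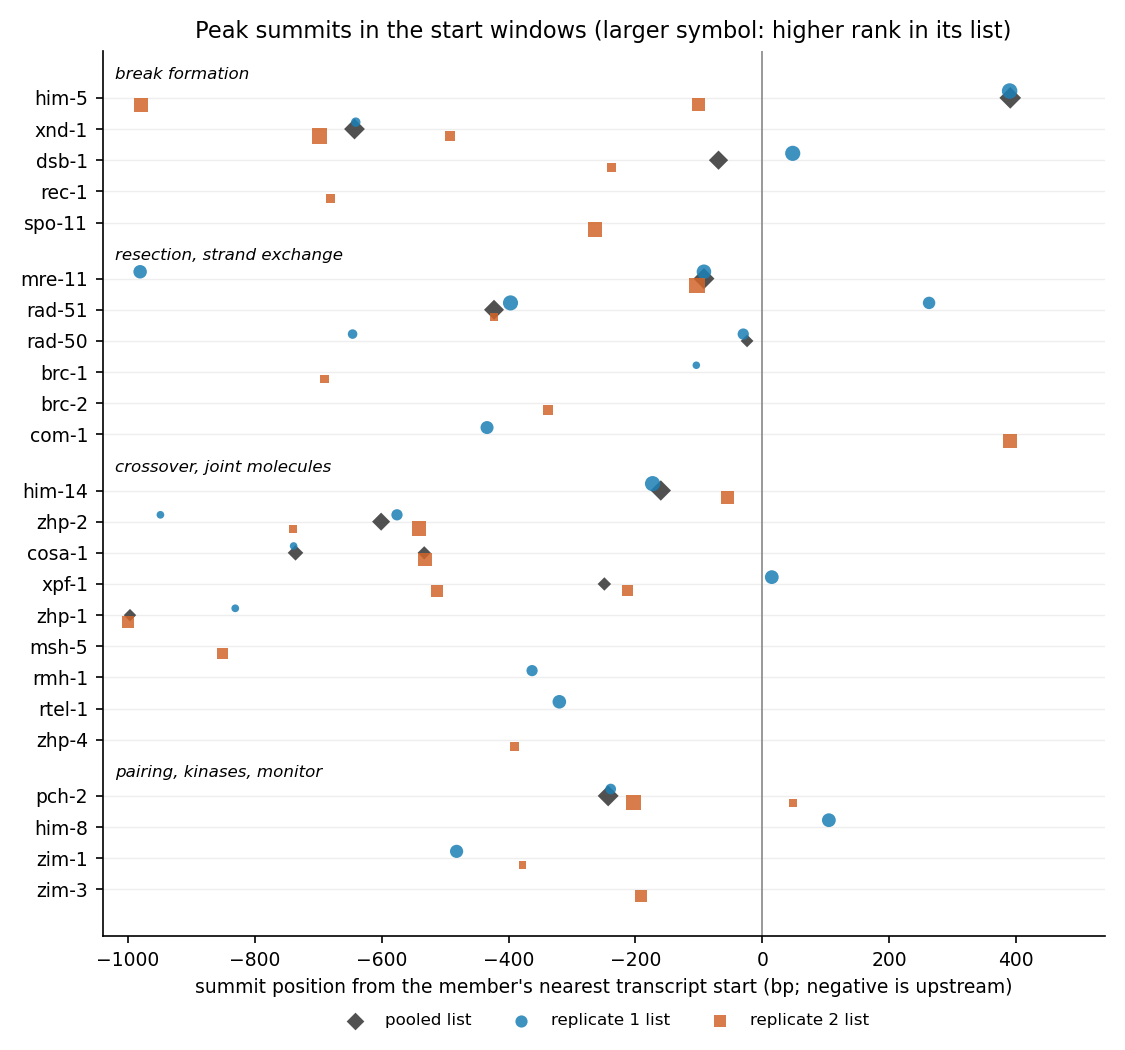
Distance of each summit from the member's nearest transcript start (x axis, bp, negative is upstream) by gene and role (y axis), with 1 symbol per list and larger symbols for higher ranks in that list. Of the 13 pooled summits 12 are upstream of the nearest start, which for dsb-1 and rad-50 is an inner start. The exception is him-5 at 391 bp downstream, and the summits of the 3 lists nearly coincide at mre-11 and xnd-1.

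Many of these windows also covered the start of a neighbour. The median window was 1501 bp long both for the members and for all protein-coding genes. Another gene's start lay in the window of 14 of 36 members (38.9%), against 23.3% of all protein-coding genes. Of those 14 members 6 were marked in the pooled list, against 29.1% of such genes, and of the other 22 members 6 (27.3%) were marked, against 18.6%. The nearest start to the strongest pooled summit was the member's own for 8 of 12 (66.7%), against 82.6% of all marked genes, and the exceptions were him-5, xnd-1, zhp-2 and cosa-1. The part that these neighbours have in the counts was not tested.

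The sequences at the summits shared no searched motif. In 200 bases centred on each of the 13 summits, on both strands, GGTTCGA was found in 0, against 5.37% of the 10013 nuclear pooled peaks and 0.890% of the 200 bases upstream of 29773 transcript starts. TTCCCGC was found in 0, against 2.996% of pooled peaks and 2.25% of upstream stretches. TTGGCGC was found in 1, at mre-11, against 2.73% and 1.45%. GAGAGA was found in 2, at cosa-1 and xnd-1, against 13.6% and 16.6%. Their GC content had a median of 37% (29% to 46.5%), against 39% over all pooled peaks.

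Other genes of meiotic recombination, repair and pairing were taken from a list of 47 symbols, of which 45 matched a gene. The pooled list marked 20 of 45 (44.4%), against 21.0% of all protein-coding genes. The replicate 1 list marked 28 (62.2%), against 31.0%, the replicate 2 list 23 (51.1%), against 26.6%, and both replicate lists 17 (37.8%), against 15.6%. Marked in none were 11 (24.4%), against 57.6%. The thresholded list marked 4 (8.89%), against 2.35%, which were lig-4, cdc-48.1, rpa-2 and pph-4.1. The gene lig-4, the ligase of non-homologous end joining, had a signal of 194.8 in the pooled list, 79.8 in the replicate 1 list and 111.6 in the replicate 2 list. Its pooled summit lay 625 bp upstream of lig-4, in the 5′ UTR of cux-7 and 7 bp from the start of that gene. The gene cdc-48.1, an ATPase that extracts ubiquitinated proteins, had signals of 194.7, 104.9 and 87.7 in the same order of lists. The gene rpa-2, a subunit of the single-strand binding protein, had 106.3, 54.2 and 52.7. The pooled summits of cdc-48.1 and rpa-2 were nearest to their own starts, at 135 and 741 bp upstream. The strongest pooled peaks in these 3 windows had a higher signal than the strongest in any window of the 36 genes.

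The strongest summit in the window of the tagged gene rec-8 was a different one in each list. It had a signal of 80.8 in the pooled list (rank 1008) and 71.8 in the replicate 1 list (rank 295), both in an intron of rec-8, 260 and 31 bp upstream of an inner start. In the replicate 2 list it had a signal of 59.9 (rank 445) in a coding exon of the neighbour W02A2.12, 9 bp from the start of that gene. The strongest pooled summit was nonetheless found at nearly the same place in both replicate lists. There it had a signal of 46.8 (rank 921, replicate 1) and 33.6 (rank 2280, replicate 2), at 259 and 268 bp upstream of the inner start. The strongest replicate 2 summit likewise had a pooled summit close to it, of signal 67.6 (rank 1632). Of the marked members, him-5 alone had a higher pooled signal in its window than rec-8.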

How the data were processed

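REC-8-GFP ChIP-seq peaks of 2 biological replicates were analysed. The authors deposited peak lists per replicate, pooled, and thresholded on irreproducible discovery rate. Per the file listings deposited with the samples, the unthresholded lists hold peaks and background. In the deposited lists each peak has a signal value and a summit offset from the peak start. The ce11 lists were used, and the ce10 lists were not. The peak caller, like the aligner, is not given in the sources used here. Depth is unknown, so no intervals are given.

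Summits (peak start plus offset, counted from 1) were assigned to start windows of all transcripts of nuclear protein-coding genes in Ensembl release 115 (WBcel235), with Python 3.11.15, pandas 2.3.3 and numpy 2.4.6. A gene's peak is the strongest in its window. Sequences and tRNA names came from the RefSeq genome and annotation of the same assembly. The assignment was tested on simulated data, where 200 of 200 planted summits were found. Alternatives were narrower and longer windows, the most upstream start, stronger peaks, overlap rules, merged peaks, no summits near short RNA genes, and each replicate alone. Full values are given for members with a thresholded summit and for the 4 members of each role with the highest pooled signal. They are also given for the 3 such genes of the further list, and for rec-8. Members marked in replicate lists alone or in none are named by group. The genes zhp-1, pph-4.1 and those with body summits or tRNA genes were named after their values were seen. The members and lists were chosen with earlier results of these data known.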

Additional observations from a re-analysis of the deposited data

How the results depend on the processing

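Under a window of 250 bp on both sides of the start, 6 members were marked (1 of break formation, 2 of crossover formation), with 10 genes of the further list and 9.67% of all genes. Up to the gene end, 19 were marked (9 of crossover formation, 2 of pairing), with 33.2% of all genes. In the strongest 25% of the pooled list, 6 were marked (1 of crossover formation), with 11 of the further list and 7.12% of all genes. In the thresholded list, 1 was marked (break formation 1, each other role 0), with 4 of the further list and 2.35% of all genes. The share of all genes was 18.8% with the most upstream start only, 20.0% (20.002%) without summits near short RNA genes, and 22.2% on autosomes. Leaving out summits near short RNA genes dropped him-5, and the most upstream start dropped him-5 and rad-50. With 1 replicate left out, so that the other's own list replaced the pooled one, 18 to 20 members were marked (break formation 3 to 5, resection 5, pairing 3), with 26.6% to 31.0% of all genes, and the median position was 38.6% to 52.4%. Members marked in both replicates numbered 5 within 250 bp (5.67% of all genes), 23 up to the gene end (29.6%), 5 in lists of the pooled length (10.4%), 0 in lists of the thresholded length (1.46%), and 8 by 50% overlap. Of the results with their alternatives, 42 moved and 42 did not, and the cause was not tested. A count moved when it changed more than 1.5-fold, and the share of all genes when it left its 95% binomial interval. The median position moved when it changed by at least the SD of the 2 replicate medians, and the length of the long stretch at any change. Counts were labelled without the share of all genes beside them, so this tally does not show whether the members' excess over that share was stable. Ranking by the deposited p-value was not run, because that column holds a placeholder. No paired analysis was possible because there is 1 group. The unknown depth limits every count.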
